A study of Mus musculus with 24 samples.

Results

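The 40 genes described here encode machinery that builds ribosomes. They comprise 6 genes of RNA polymerase I and its factors, 3 core proteins of box C/D small nucleolar ribonucleoproteins (snoRNPs), 5 genes of box H/ACA snoRNPs and their chaperone, 11 assembly factors of the small ribosomal subunit, 10 of the large subunit and 5 other nucleolar proteins. The members are a list of gene symbols, and each symbol was matched to an Ensembl identifier in the count table. All 40 were found among its 56884 genes, and all 40 were among the 13679 genes that had enough counts to be tested.

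RNA polymerase I transcribes the precursor of ribosomal RNA (rRNA) in the nucleolus. Box C/D snoRNPs guide its methylation and box H/ACA snoRNPs its pseudouridylation, while large sets of assembly factors fold, cut and export the precursors of both subunits. The pathway is known to follow growth signals, and many of its genes are known targets of the transcription factor MYC.

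Bone marrow–derived macrophages (BMDM) came from 4 wild-type C57BL/6J female mice aged 9 weeks, numbered 1, 2, 4 and 5. Each mouse contributed 1 library to each of 6 groups, which makes 24 RNA-seq libraries. All cells were grown from marrow with macrophage colony-stimulating factor (M-CSF). Naive cells then received nothing further, and the IL-4/IL-13 group received interleukin-4 and interleukin-13 at 20 ng/ml each over 24 hours. The remaining groups received the same cytokines together with an inhibitor that was also given alone for 1 hour beforehand. Tunicamycin, which blocks N-linked glycosylation in the endoplasmic reticulum, was used at 5 µg/ml. Sal003, which inhibits dephosphorylation of the initiation factor eIF2α, was used at 10 µM. Oligomycin, which inhibits the mitochondrial ATP synthase, was used at 1 µM in 2 groups, and 1 of these also had ISRIB at 1 µM, a compound that restores translation when eIF2α is phosphorylated. The sample titles place ISRIB in the group called set A here. The library names and the replicate labels place it in the group called set B, so neither set is called the ISRIB group. No group had an inhibitor without the cytokines. The libraries were made from mRNA and rRNA reads were removed, so the precursor and mature rRNA were not measured.

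Between 16238727 and 26725278 reads per library fell on genes. Levels are given as CPM, the counts of a gene scaled to a common library size after trimmed-mean (TMM) normalization, and where 4 values are listed they are those of mice 1, 2, 4 and 5. A log2 fold change is the edgeR estimate, with its standard error, and a gene is said to have risen or fallen if its adjusted *P* (edgeR's quasi-likelihood test, Benjamini-Hochberg over all genes tested) was under 0.05. All 7 macrophage markers, among them *Adgre1* and *Csf1r*, were detected in all groups, and their summed level ran from 30580 to 36300 CPM in naive cells, 11370 to 13770 CPM with IL-4/IL-13, 16070 to 17650 CPM with tunicamycin, 8721 to 9537 CPM in set A and 13400 to 15520 CPM over the Sal003 and set B libraries. Of the other marker lists, the 8 neutrophil and granulocyte precursor genes summed to 40.7 to 76.8 CPM in naive cells, 24.1 to 44.4 CPM with IL-4/IL-13, 0.103 to 0.286 CPM with tunicamycin, 18.9 to 24.7 CPM in set B, 5.09 to 8.49 CPM with Sal003 and 2.73 to 4.71 CPM in set A, with 3 of the 8 at 0 in each tunicamycin and each set A library. The 6 fibroblast and endothelial genes summed to 19.03 to 139 CPM in naive cells, 15.3 to 87.1 CPM with IL-4/IL-13, 3.92 to 24.8 CPM with tunicamycin and 5.90 to 55.02 CPM over the other groups, the T cell and erythroid genes to at most 0.171 CPM in a library, and the B cell, dendritic cell and mast cell genes to at most 3.24, 7.41 and 1.21 CPM. The part of these differences in the results below was not tested. The marker values are sums, which follow the most abundant genes of each list. They do not show how single markers changed, and markers of a list can change in opposite directions. The naive library of mouse 2 stood apart in the share of counts on ribosomal protein genes, 1.55% against 1.07% to 1.14% in the other naive libraries.

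The members together took a small share of each library, and for several groups that share lay outside the spread between mice of the others. The 40 genes took 0.175%, 0.181%, 0.168% and 0.175% of gene counts in the naive libraries and 0.213%, 0.211%, 0.204% and 0.210% with IL-4/IL-13. With tunicamycin the shares were 0.356%, 0.367%, 0.360% and 0.363%, the highest of the 6 groups, and with Sal003 they were 0.210%, 0.206%, 0.199% and 0.211%. Set A had 0.304%, 0.303%, 0.301% and 0.310%, and set B 0.222%, 0.221%, 0.217% and 0.227%. The ranges of the naive, tunicamycin, set A and set B libraries overlapped with those of no other group, whereas the Sal003 libraries overlapped with the IL-4/IL-13 libraries. With RNA from whole cultures, a larger share of cells with high levels and a higher level per cell cannot be told apart.

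**Figure D1:**
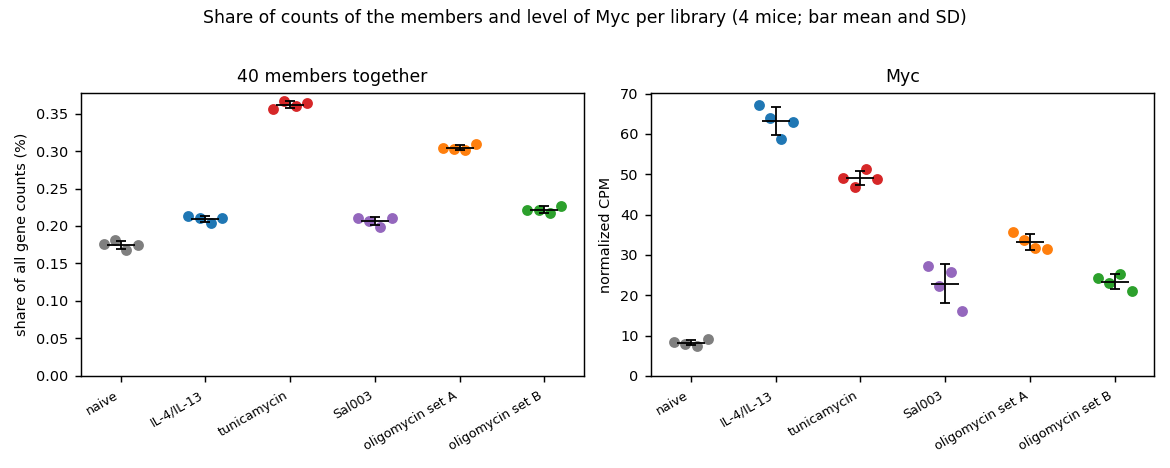
The left panel shows the share of all gene counts (%) on the 40 members, and the right panel the level of *Myc* (normalized CPM), for each of 24 libraries in 6 groups. Each point is a mouse and each bar the mean with its SD (n = 4). The members' share averaged 0.175% in naive cells, 0.209% with IL-4/IL-13 and 0.362% with tunicamycin, whereas *Myc* was highest with IL-4/IL-13 alone, at 63.2 CPM.

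By gene, the mean level was highest with tunicamycin for 35 of the 40 members, in set A for 3 (*Npm1*, *Utp15* and *Noc4l*), in set B for *Polr1c* and with Sal003 for *Pes1*. It was lowest in naive cells for 34 members. Per transcript length, in TPM (counts divided by transcript length and scaled to 1 total for all libraries), the median member stood at 24.4 TPM in naive cells, 32.3 with IL-4/IL-13, 63.8 with tunicamycin, 30.03 with Sal003, 43.7 and 30.7 in sets A and B. With IL-4/IL-13 the members ranged from 5.74 TPM for *Polr1e* to 341 TPM for *Npm1*, which encodes the abundant nucleolar phosphoprotein nucleophosmin. The next highest were *Noc2l* at 106 TPM, *Ncl* at 92.7 TPM and *Ubtf* at 91.0 TPM. This order depends on the canonical transcript length used, 2795 bases for *Noc2l* and 8288 for *Ncl*. By CPM, *Ncl* averaged 298 with IL-4/IL-13 and *Noc2l* 115.

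**Figure D2:**
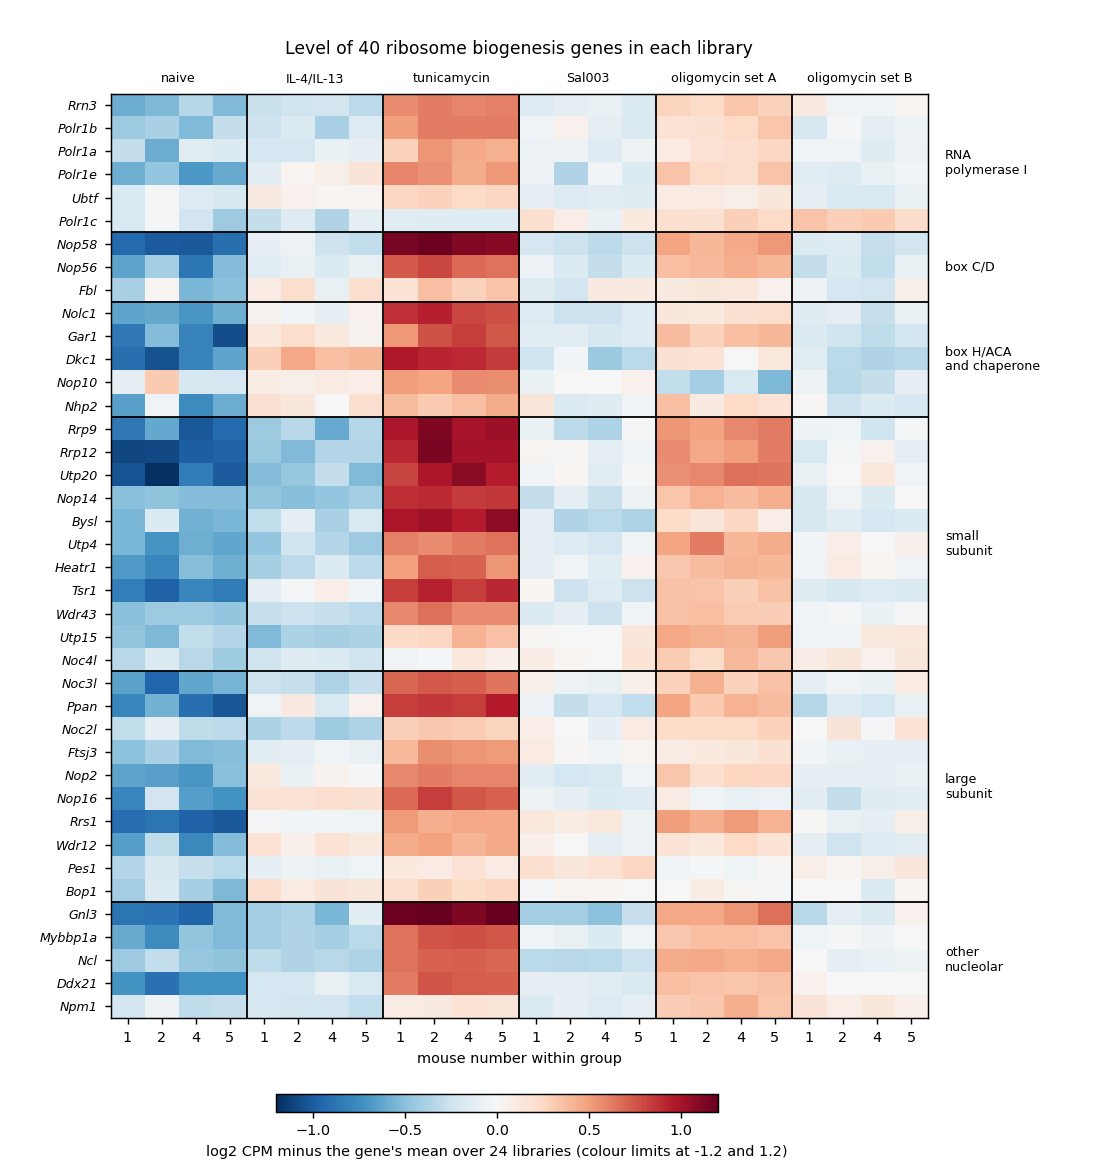
Rows are the 40 members in 6 role groups, ordered within each by the change with tunicamycin, and columns are the 24 libraries by group and mouse. Colour shows log2 CPM minus the mean of that gene over all libraries, and values beyond the ends of the colour bar are drawn in its end colours. Most rows are lowest in the naive libraries and highest with tunicamycin, and *Polr1c* and *Pes1* are among the exceptions.

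Against naive cells, IL-4/IL-13 raised 31 of the 40 members and lowered 0, with a median log2 fold change of 0.41 and a range from -0.12 to 1.21. Of all genes tested, 30.1% rose and 30.4% fell, and their median was -0.02. By edgeR's unadjusted *P* under 0.05, 1 member was lower, *Noc2l*, and DESeq2 called 0 lower. *Noc2l* passed the adjusted threshold with the mouse as a block in the model, with upper-quartile scaling and with a stricter filter on counts.

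With tunicamycin, 37 members rose further above IL-4/IL-13 alone and 0 fell, with a median log2 fold change of 0.78 and a range from 0.08 to 1.56. Over all genes tested, 38.7% rose, 37.6% fell and the median was 0.01. By the unadjusted *P* of edgeR and by DESeq2 the number of members lower was also 0. Of the 37, 5 rose at least 2.5-fold, against 8.56% of all genes tested. The 3 members without a call were *Fbl*, *Bop1* and *Polr1c*, with log2 fold changes of 0.18, 0.10 and 0.08.

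With Sal003, 17 members rose and 8 fell against IL-4/IL-13 alone, with a median log2 fold change of 0.05 and a range from -0.63 to 0.46. The falls, 20.0% of the members, were no more frequent than among all genes, of which 25.9% rose and 24.6% fell. With upper-quartile scaling 12 rose and 12 fell, and with no filter on low counts 5 fell. The median ran from 0.03 to 0.08 when 1 mouse was left out, 0.08 being that without mouse 4.

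The oligomycin sets differed in the same comparison. In set A 31 members rose and 3 fell, with a median of 0.49, beside 34.0% and 32.2% of all genes. In set B 19 rose and 11 fell, with a median of 0.11, beside 27.9% and 26.4% of all genes. The 11 falls, 27.5% of the members, were about as frequent as among all genes. When mouse 4 was left out, 7 members fell in set B in place of 11. The 4 inhibitor comparisons share the IL-4/IL-13 libraries, so their values are given side by side and their overlap is not read as a result.

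Set A and set B share the mice but no libraries and were compared directly. In set A 34 members were higher than in set B and 1, *Pes1*, was lower, with a median log2 fold change of 0.36 and a range from -0.16 to 0.66. Of all genes tested 19.9% were higher, 21.3% were lower and the median was 0.00. By the titles this is oligomycin with ISRIB against oligomycin without it, and by the library names and replicate labels it is the reverse.

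Set against naive cells, which also lack the cytokines, the inhibitor groups were higher for most members. By edgeR, with tunicamycin 39 were higher and 0 lower (37.1% and 40.5% of all genes), with a median log2 fold change of 1.22, and 16 of them passed the minimum of 2.5-fold (7.5% of all genes). With Sal003 36 were higher and 0 lower (31.7% and 30.8% of all genes), with a median of 0.45. In set A 39 were higher and 1, *Nop10*, was lower (35.5% and 35.5% of all genes), with a median of 0.86, and the call of *Nop10* was lost without mouse 2. In set B 38 were higher and 0 lower (32.6% and 31.2% of all genes), with a median of 0.47. In the 3 comparisons with 0 lower, the number was also 0 by the unadjusted *P* and by DESeq2.

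**Figure D3:**
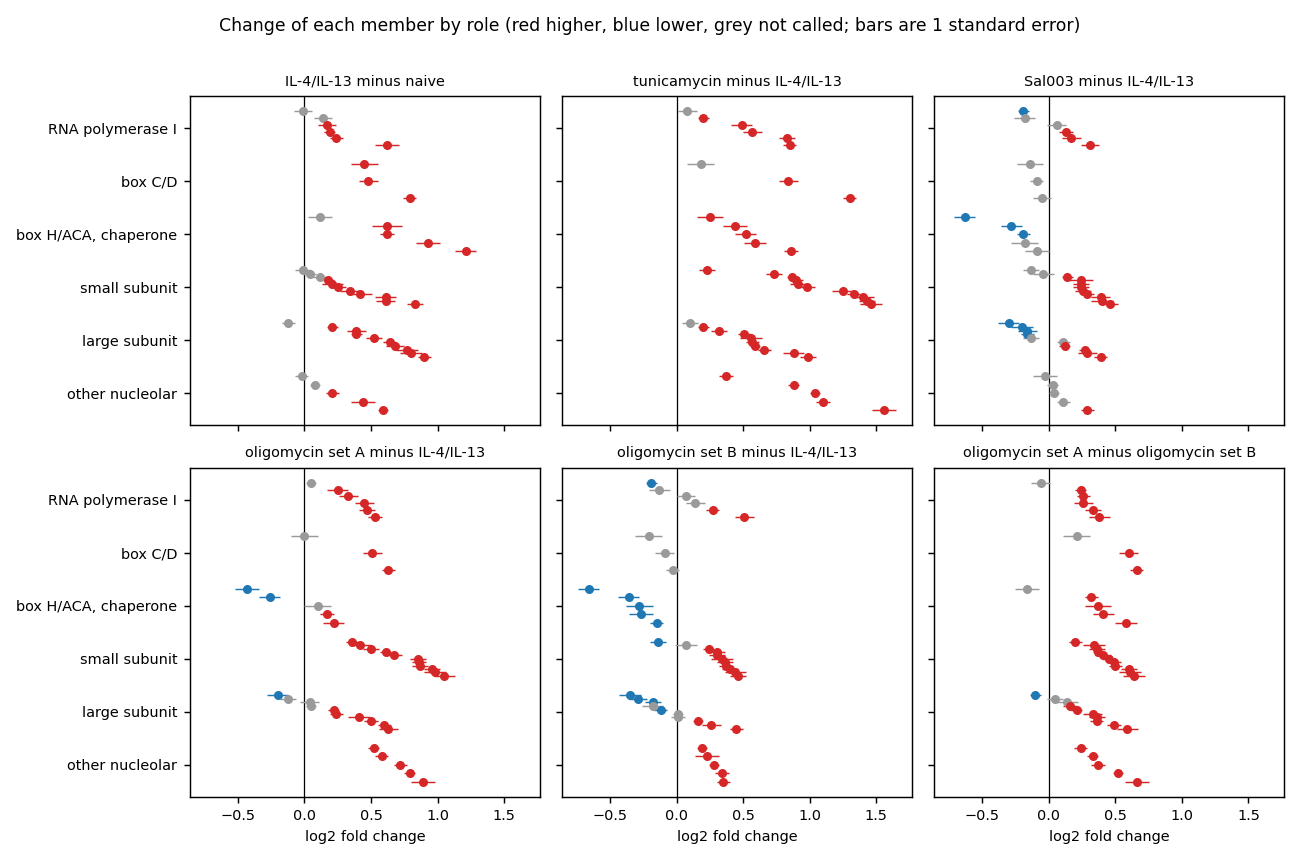
Each panel is 1 comparison, the horizontal axis the log2 fold change and each point a member, placed by role, with its standard error. Red points rose, blue points fell and grey points were not called (edgeR's quasi-likelihood test, adjusted *P* under 0.05). With tunicamycin no point is blue. Falls were 20.0% of the members with Sal003 and 27.5% in set B, beside 24.6% and 26.4% of all genes. The box H/ACA genes hold 3 of the 8 falls with Sal003 and 5 of the 11 in set B.

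Of the 6 RNA polymerase I genes, 5 rose with tunicamycin, with a median log2 fold change of 0.53. The 6 had 4 rises with IL-4/IL-13 over naive cells, 3 rises and 1 fall with Sal003, 5 rises in set A and 2 rises and 1 fall in set B. Of 10 further genes of RNA polymerase I and its factors, none of them members, 0 rose and 4 fell with IL-4/IL-13 (median -0.08). With tunicamycin 6 of these 10 rose and 3 fell (median 0.26).

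*Rrn3* (chromosome 16, 13598376 to 13635974, plus strand) encodes the factor that brings RNA polymerase I to the rRNA gene promoter. It stood at 34.7, 35.9, 41.3 and 36.2 CPM in naive cells, 43.6, 44.4, 44.97 and 42.0 with IL-4/IL-13 and 77.5, 80.3, 78.3 and 79.8 with tunicamycin. All 4 tunicamycin libraries lay above all 4 IL-4/IL-13 libraries, which in turn lay above the naive ones (tunicamycin against IL-4/IL-13, log2 fold change 0.85, standard error 0.05, adjusted *P* = 1.7e-14). In set A it was at 62.9, 61.2, 65.9 and 63.6 CPM and in set B at 56.5, 50.8, 51.2 and 53.0, again without overlap between the sets (set A minus set B 0.26 on the log2 scale, SE 0.05, adjusted *P* = 6.8e-05). With Sal003 the rise of *Rrn3* was 0.13 on the log2 scale, and its call was lost with DESeq2, with upper-quartile scaling and without mouse 1, 2 or 5.

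*Polr1a* and *Polr1b* encode the catalytic core subunits. *Polr1a* (chromosome 6, 71886021 to 71961919, plus strand) was at 32.6, 32.3, 35.5 and 35.1 CPM with IL-4/IL-13 and 45.5, 54.2, 51.3 and 50.2 with tunicamycin, with no overlap (log2 fold change 0.57, standard error 0.07, adjusted *P* = 6.8e-08). *Polr1b* (chromosome 2, 128942903 to 128970214, plus strand) was at 15.6, 16.4, 14.1 and 16.7 and 26.2, 28.4, 28.3 and 28.6 CPM in the same groups, also without overlap (log2 fold change 0.83, standard error 0.06, adjusted *P* = 1.4e-11). For *Polr1a* the naive libraries, at 30.7, 24.8, 34.05 and 33.5 CPM, those of Sal003, at 35.7, 35.98, 33.7 and 35.9, and those of set B, at 36.2, 36.5, 33.8 and 35.7, overlapped with IL-4/IL-13, with log2 fold changes of 0.06 for Sal003 and 0.07 for set B. Set A, at 40.01, 42.3, 42.95 and 44.6 CPM, lay above IL-4/IL-13 (0.33). The smaller rises of *Polr1b* with IL-4/IL-13 over naive cells (0.17) and with Sal003 (0.17) lost their calls with upper-quartile scaling and without mouse 1, 2 or 4.

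*Polr1c* (chromosome 17, 46554843 to 46559126, minus strand), a subunit that RNA polymerase I shares with RNA polymerase III, had another order. It was at 20.7, 23.1, 20.1 and 17.3 CPM in naive cells, 19.3, 21.1, 18.3 and 21.7 with IL-4/IL-13 and 21.4, 21.3, 21.04 and 21.1 with tunicamycin, and these 3 groups overlapped. With Sal003 it was at 26.9, 24.8, 22.1 and 25.4 CPM, in set A at 26.9, 26.7, 28.5 and 27.5 and in set B at 29.7, 28.6, 29.2 and 27.3, each without overlap with IL-4/IL-13. Its log2 fold changes against IL-4/IL-13 were 0.08 with tunicamycin, 0.31 with Sal003, 0.45 for set A and 0.51 for set B, the last 3 past the threshold, and sets A and B overlapped.

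*Polr1e* (chromosome 4, 45018583 to 45038513, plus strand) encodes a subunit specific to RNA polymerase I and had the lowest TPM of the members. Its libraries held 4.34, 4.72, 4.02 and 4.27 CPM in naive cells, 5.96, 6.61, 6.84 and 7.22 with IL-4/IL-13 and 9.76, 9.52, 8.85 and 9.32 with tunicamycin. The 3 groups did not overlap, with log2 fold changes of 0.62 for the cytokines (standard error 0.09) and 0.49 for tunicamycin (standard error 0.08). Its rise in set A (0.25) lost its call with DESeq2, with no filter on low counts and without mouse 1.

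*Ubtf* (chromosome 11, 102195386 to 102210568, minus strand) encodes a factor that binds along active rRNA genes. It was at 172, 165, 162 and 163 CPM with IL-4/IL-13, 189, 194, 188 and 189.8 with tunicamycin, 149, 144, 145 and 144 with Sal003 and 147, 141, 141 and 151 in set B. The tunicamycin libraries lay above the IL-4/IL-13 range and those of Sal003 and set B below it, with log2 fold changes of 0.20, -0.19 and -0.19. Set A, at 170.3, 171, 167 and 175 CPM, overlapped with IL-4/IL-13 and lay above set B (set A minus set B 0.24 on the log2 scale, SE 0.04, adjusted *P* = 2.3e-05).

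**Figure D4:**
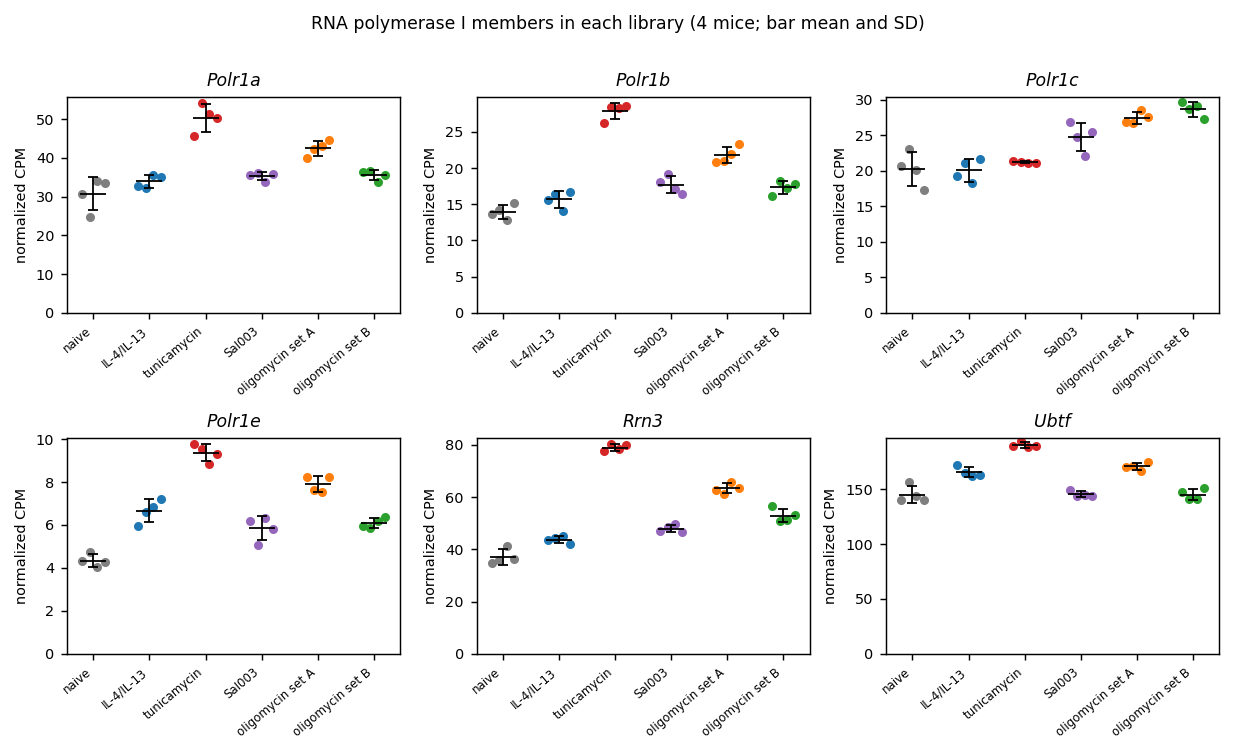
Each panel shows 1 RNA polymerase I member, with normalized CPM from 0 on the vertical axis, the 6 groups on the horizontal axis, a point per mouse and a bar for the mean with its SD (n = 4). *Rrn3* reaches 77.5 to 80.3 CPM with tunicamycin against 42.0 to 45.0 CPM with IL-4/IL-13, while *Polr1c* stays at 21.0 to 21.4 CPM with tunicamycin.

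The 3 box C/D genes all rose with IL-4/IL-13. *Nop58* (chromosome 1, 59724106 to 59758203, plus strand), a core protein of these snoRNPs, was at 19.6, 18.8, 18.6 and 19.98 CPM in naive cells, 34.98, 35.7, 31.5 and 30.5 with IL-4/IL-13 and 82.5, 84.6, 80.9 and 79.8 with tunicamycin, with no overlap among the 3 groups. Its log2 fold changes were 0.79 for the cytokines and 1.30 for tunicamycin, each with a standard error of 0.05. Sal003 and set B overlapped with IL-4/IL-13, whereas set A was at 51.8, 49.2, 51.1 and 53.7 CPM, above set B at 33.4, 33.7, 30.9 and 32.2 (set A minus set B 0.66 on the log2 scale, SE 0.05, adjusted *P* = 5.1e-11). *Nop56*, its partner in the same particle, changed by 0.48, 0.84, -0.05, 0.51 and -0.09 for the cytokines, tunicamycin, Sal003, then sets A and B, the Sal003 and set B values not past the threshold.

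*Fbl* (chromosome 7, 27868353 to 27878701, plus strand) encodes fibrillarin, the methyltransferase of the particle. It was at 13.1, 17.5, 11.8 and 12.2 CPM in naive cells, 18.5, 19.9, 16.2 and 19.7 with IL-4/IL-13, 19.3, 22.1, 20.9 and 21.9 with tunicamycin, 15.5, 14.7, 18.6 and 18.6 with Sal003, 18.6, 18.9, 18.9 and 17.8 for set A and 16.5, 14.99, 14.7 and 17.9 for set B. All 6 groups overlapped with a neighbour in this order of levels, and the rise with IL-4/IL-13 (log2 fold change 0.45, standard error 0.10, adjusted *P* = 0.00064) was called. Against IL-4/IL-13 no inhibitor group was called for *Fbl*, and against naive cells all 4 were higher, by 0.63 with tunicamycin, 0.31 with Sal003 and 0.45 and 0.24 in sets A and B. Of the stretches of 75 bases of its exons 21.0% also occur in other genes, among them the pseudogene *Fbl-ps2*, so its counts are uncertain.

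The box H/ACA genes rose with the cytokines and with tunicamycin, and fell in set B. With IL-4/IL-13 4 of the 5 rose, with a median log2 fold change of 0.62, and with tunicamycin 5 of 5 rose, with a median of 0.52. With Sal003 3 of 5 fell (median -0.19), in set B 5 of 5 fell (median -0.28), and in set A 2 rose and 2 fell. Among all genes 24.6% fell with Sal003 and 26.4% in set B. The 2 rises and 2 falls in set A, 40.0% each, were near the 34.0% and 32.2% of all genes. Of the 5 falls in set B, that of *Nolc1* was lost with no filter on low counts and without mouse 1, that of *Nop10* without mouse 4 and that of *Nhp2* without mouse 5. Between the sets 4 of the 5 were higher in set A.

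*Dkc1* (chromosome X, 74139460 to 74155456, plus strand) encodes dyskerin, the pseudouridine synthase. Its libraries held 7.95, 7.22, 8.58 and 9.59 CPM in naive cells and 18.2, 20.6, 19.1 and 19.7 with IL-4/IL-13, the largest rise of a member with the cytokines (log2 fold change 1.21, standard error 0.08, adjusted *P* = 4.8e-12). It rose again to 28.96, 28.04, 27.8 and 26.6 CPM with tunicamycin (log2 fold change 0.52, standard error 0.08, adjusted *P* = 1.1e-06). It fell to 12.7, 14.6, 10.9 and 11.9 CPM with Sal003 and 13.6, 11.9, 11.7 and 11.8 in set B, with log2 fold changes of -0.63 and -0.66 and standard errors of 0.08. Every library of these 2 groups lay below every IL-4/IL-13 library and above every naive one, and set A, at 16.9, 16.7, 14.9 and 16.3 CPM, lay between these groups and IL-4/IL-13. The exons of *Mpp1* on the opposite strand cover 20.1% of its exon bases, and whether reads were counted by strand is not given in the sources used here.

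*Gar1* (chromosome 3, 129618560 to 129625045, minus strand), another core protein of these snoRNPs, was at 6.68, 8.47, 6.97 and 5.81 CPM in naive cells, 13.3, 14.1, 13.1 and 12.5 with IL-4/IL-13, 17.4, 20.6, 21.6 and 20.3 with tunicamycin, 11.1, 11.1, 10.6 and 10.9 with Sal003 and 10.8, 10.2, 9.84 and 10.4 in set B. The order of these groups was the same as for *Dkc1*, with log2 fold changes of 0.93 for the cytokines, 0.59 for tunicamycin, -0.28 for Sal003 and -0.36 for set B. In set A it was at 15.7, 14.6, 15.6 and 15.99 CPM, above both IL-4/IL-13 and set B (set A minus set B 0.58 on the log2 scale, SE 0.08, adjusted *P* = 1.8e-06). No other gene overlaps its exons.

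*Nop10* (chromosome 2, 112092271 to 112093764, plus strand), the smallest core protein, was at 23.2, 22.9, 23.3 and 23.0 CPM with IL-4/IL-13, 30.4 to 32.3 with tunicamycin, 17.8, 16.5, 19.2 and 14.99 in set A and 20.9, 17.4, 17.9 and 20.2 in set B. Both oligomycin sets lay below the IL-4/IL-13 libraries, with log2 fold changes of -0.43 and -0.27, and they overlapped with each other. *Nhp2*, the remaining core protein, and *Nolc1*, the chaperone, changed by -0.28 and -0.15 in set B and by 0.25 and 0.86 with tunicamycin, all past the threshold, although the set B calls depended on single mice. The exons of *Rmnd5b* on the opposite strand cover 25.1% of the exon bases of *Nhp2*, so its counts are uncertain.

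**Figure D5:**
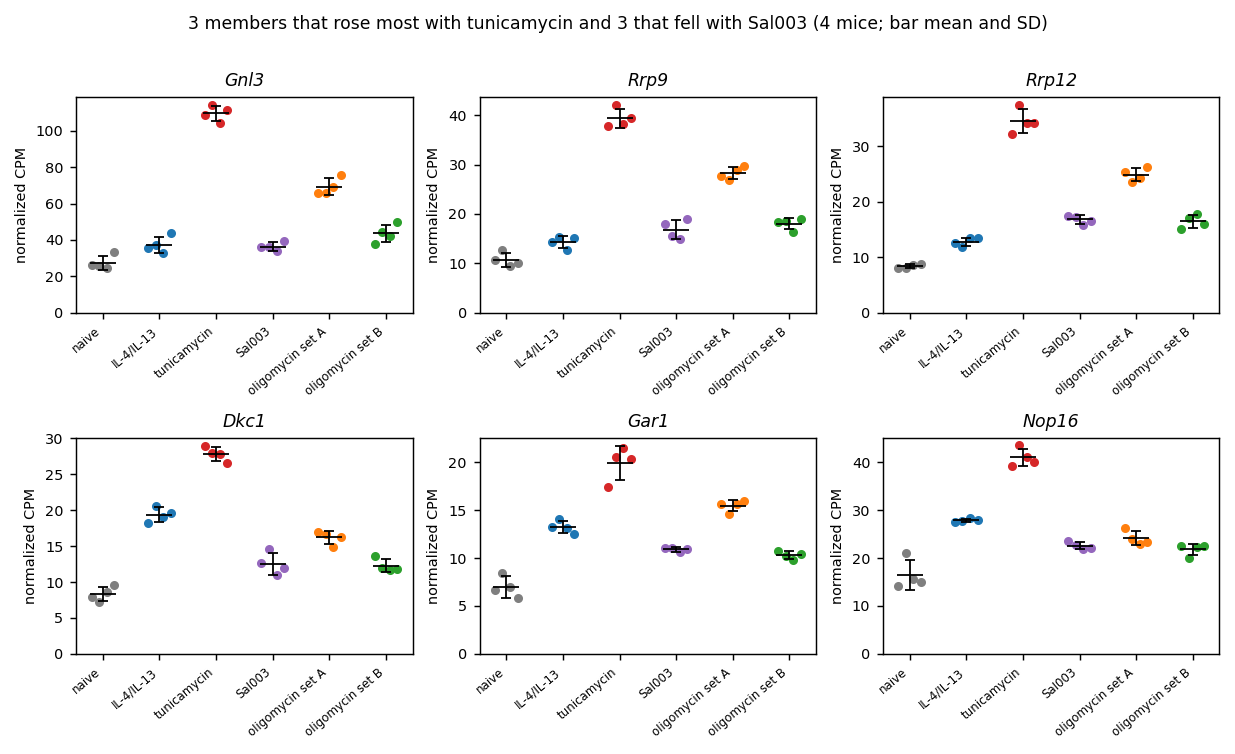
Each panel shows 1 member, with normalized CPM from 0 on the vertical axis, the 6 groups on the horizontal axis, a point per mouse and a bar for the mean with its SD (n = 4). The upper panels show the 3 largest rises with tunicamycin (*Gnl3*, *Rrp9* and *Rrp12*) and the lower panels the 3 largest falls with Sal003 (*Dkc1*, *Nop16* and *Gar1*). *Gnl3* averaged 109.5 CPM with tunicamycin against 36.3 CPM with Sal003, while *Dkc1* averaged 27.9 and 12.5 CPM.

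The small subunit factors rose in each comparison for most of the 11 genes. All 11 rose with tunicamycin (median log2 fold change 0.98) and all 11 in set A (median 0.85), 9 rose with Sal003 (median 0.24), and in set B 9 rose and *Tsr1* fell (median 0.34), a call that was lost with no filter on low counts and without mouse 2, 4 or 5. All 11 were higher in set A than in set B, with a median of 0.45. With the cytokines over naive cells 8 rose, with a smaller median of 0.25.

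*Rrp9* (chromosome 9, 106353162 to 106362623, plus strand), a protein of the snoRNP that opens small subunit processing, was at 14.3, 15.3, 12.6 and 15.2 CPM with IL-4/IL-13, 37.8, 41.99, 38.2 and 39.3 with tunicamycin, 27.7, 26.9, 28.8 and 29.7 in set A and 18.5, 18.6, 16.3 and 18.9 in set B. These 4 groups did not overlap, with the largest rise of a small subunit member with tunicamycin (log2 fold change 1.46, standard error 0.08, adjusted *P* = 1.7e-14). Set A exceeded set B by 0.64 on the log2 scale (standard error 0.08), while Sal003, at 18.1, 15.4, 14.9 and 18.9 CPM, rose by 0.24 and overlapped with IL-4/IL-13.

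*Rrp12* (chromosome 19, 41847867 to 41884649, minus strand), which acts in export and late maturation of subunit precursors, rose from 8.003, 8.07, 8.63 and 8.75 CPM in naive cells to 12.6, 11.8, 13.4 and 13.4 with IL-4/IL-13 and 32.1, 37.3, 34.1 and 34.2 with tunicamycin. It was at 17.5, 17.3, 15.8 and 16.6 CPM with Sal003, 25.3, 23.5, 24.3 and 26.2 for set A and 15.1, 16.97, 17.8 and 15.9 for set B. Each inhibitor group lay above all IL-4/IL-13 libraries, with log2 fold changes of 1.43, 0.39, 0.96 and 0.36 in the order of tunicamycin, Sal003 and sets A and B, and only Sal003 and set B overlapped with each other. No other gene overlaps its exons.

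*Utp20* (chromosome 10, 88582469 to 88662699, minus strand), a large scaffold of the small subunit processome, was at 17.03, 13.4, 19.5 and 17.5 CPM in naive cells, 24.4, 25.6, 28.7 and 24.2 with IL-4/IL-13, 61.3, 68.6, 74.3 and 67.3 with tunicamycin, 34.1, 35.6, 32.04 and 34.5 with Sal003, 51.2, 52.1, 55.3 and 54.8 for set A and 32.9, 34.9, 38.3 and 34.1 for set B. Its log2 fold changes against IL-4/IL-13 were 1.40, 0.40, 1.05 and 0.44 in the same order, the set A value being the largest rise there (log2 fold change 1.05, standard error 0.08, adjusted *P* = 1.3e-11).

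*Utp15* (chromosome 13, 98382749 to 98399562, minus strand), a processome protein that also promotes rRNA gene transcription, overlapped between naive and IL-4/IL-13 cells, at 28.1, 26.8, 31.9 and 30.5 and 27.1, 29.96, 29.5 and 29.9 CPM. It was at 45.6, 46.2, 52.01 and 49.7 CPM with tunicamycin, 39.4, 38.97, 38.7 and 42.9 with Sal003, 53.6, 52.3, 51.9 and 55.3 for set A and 37.7, 38.02, 42.2 and 42.6 for set B. All 4 groups lay above all IL-4/IL-13 libraries, and the rise with Sal003 was the largest of a member there (log2 fold change 0.46, standard error 0.06, adjusted *P* = 5.5e-07). Of the rest, *Nop14*, *Wdr43*, *Utp4* and *Heatr1*, all processome proteins, rose by 0.87 to 1.33 with tunicamycin and by 0.14 to 0.29 with Sal003. *Bysl*, a late maturation factor, rose by 1.25 with tunicamycin and changed by -0.04 with Sal003, which was not past the threshold. *Tsr1*, another late maturation factor, has 49.1% of its exon bases under exons of the opposite strand and is uncertain, and *Noc4l* rose by 0.23 with tunicamycin and by 0.50 in set A.

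The large subunit factors split. With the cytokines 9 of the 10 rose (median log2 fold change 0.58) and with tunicamycin 9 (median 0.57), whereas Sal003 raised 4 and lowered 4, set B raised 3 and lowered 4, and set A raised 6 and lowered 1. The PeBoW complex, which acts in large subunit rRNA processing, has 3 proteins among the members. With Sal003 *Pes1* changed by 0.27, *Bop1* by -0.13 (adjusted *P* = 0.051 by edgeR's quasi-likelihood test, and past the threshold with the mouse as a block) and *Wdr12* by -0.16 (adjusted *P* = 0.046). The *Wdr12* call was lost with no filter on low counts and without mouse 1, 4 or 5. In set B the 3 values were 0.16, -0.18 and -0.29, all past the threshold, and the *Bop1* call was lost without mouse 4.

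*Pes1* (chromosome 11, 3913938 to 3931441, plus strand) was at 103, 107, 105 and 107 CPM with IL-4/IL-13, 122, 119, 125 and 119 with tunicamycin, 127, 122, 126 and 132 with Sal003, 108, 109.5, 107 and 112 for set A and 117, 114, 116 and 122 for set B. Of the 3 members with a lower mean in set A than in set B, among them *Nop10* and *Polr1c*, it was the 1 that was called (set A minus set B -0.10 on the log2 scale, SE 0.04, adjusted *P* = 0.03), with no overlap between the sets, and that call was lost with upper-quartile scaling, with no filter on low counts and without mouse 1, 4 or 5.

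*Nop16* (chromosome 13, 54731998 to 54738678, minus strand), a nucleolar large subunit factor, was at 27.6, 27.7, 28.3 and 27.9 CPM with IL-4/IL-13, 39.3, 43.6, 41.1 and 40.1 with tunicamycin, 23.6, 22.7, 21.97 and 22.03 with Sal003, 26.3, 23.9, 23.04 and 23.4 for set A and 22.6, 20.1, 22.3 and 22.5 for set B. The tunicamycin libraries lay above and the other inhibitor groups below the IL-4/IL-13 libraries, with log2 fold changes of 0.56, -0.30, -0.20 and -0.35. The set A call was lost without mouse 4 or mouse 5, and 11.1% of its exon bases lie under an exon of the opposite strand.

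*Noc2l* (chromosome 4, 156320376 to 156332073, plus strand), which escorts large subunit precursors, went the other way, at 115, 119.8, 111 and 115 CPM with IL-4/IL-13, 157, 148, 139 and 159 with Sal003 and 149.7, 165, 146 and 166 in set B. Both groups lay above all IL-4/IL-13 libraries (0.39 and 0.45 on the log2 scale), as did tunicamycin (0.66) and set A (0.60). *Rrs1* (chromosome 1, 9615633 to 9617680, plus strand), which helps load a small rRNA onto the large subunit precursor, was at 19.4, 19.96, 18.7 and 18.2 CPM in naive cells and 35.9, 35.7, 35.6 and 35.3 with IL-4/IL-13 (log2 fold change 0.90, standard error 0.05, adjusted *P* = 5.4e-14). It is a gene of 1 exon with 39.4% of its bases under an exon of the opposite strand, so its counts are uncertain. *Ppan*, *Noc3l*, *Nop2* and *Ftsj3*, the last a methyltransferase, rose by 0.88, 0.99, 0.57 and 0.59 with tunicamycin.

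The other nucleolar proteins rose with tunicamycin and in both oligomycin sets, 5 of 5 in each, with median log2 fold changes of 1.04, 0.72 and 0.28. With Sal003 *Mybbp1a*, a nucleolar MYB-binding protein, was the 1 that rose (0.29), 20.0% of the 5 beside 25.9% of all genes.

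*Gnl3* (chromosome 14, 30734389 to 30741364, minus strand) encodes nucleostemin, a nucleolar GTPase. It was at 26.1, 25.9, 24.6 and 33.1 CPM in naive cells, 35.8, 36.97, 32.6 and 43.6 with IL-4/IL-13, 108, 114, 104 and 111 with tunicamycin, 35.97, 35.9, 33.97 and 39.5 with Sal003, 65.95, 65.9, 69.03 and 75.8 for set A and 37.97, 44.3, 42.4 and 49.7 for set B. The tunicamycin libraries lay above all others, with the largest rise of a member (log2 fold change 1.56, standard error 0.09, adjusted *P* = 2.5e-14), while Sal003 overlapped with IL-4/IL-13 (-0.03). Sets A and B did not overlap, and their difference was, with that of *Nop58*, the largest of a member (set A minus set B 0.66 on the log2 scale, SE 0.09, adjusted *P* = 9.6e-07). In mouse 5 it was the highest of the 4 libraries in all groups except tunicamycin.

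*Ncl* (chromosome 1, 86272441 to 86287208, minus strand) encodes nucleolin, which binds rRNA and histones in the nucleolus. It was at 279.5, 307, 275 and 270 CPM in naive cells, 306, 294, 299.7 and 293 with IL-4/IL-13 and 595, 620, 622 and 609 with tunicamycin. Naive and IL-4/IL-13 libraries overlapped (log2 fold change 0.08, standard error 0.04, adjusted *P* = 0.098), whereas the tunicamycin libraries lay well above both (log2 fold change 1.04, standard error 0.04, adjusted *P* = 6.6e-18). With Sal003 *Ncl* was at 303, 301, 302 and 316 CPM, overlapping with IL-4/IL-13, in set A at 517, 520.3, 509.6 and 520.3 and in set B at 376, 351, 356 and 362, without overlap between the sets (set A minus set B 0.52 on the log2 scale, SE 0.04, adjusted *P* = 9.4e-11). Without mouse 2, or with DESeq2, its small difference with the cytokines passed the threshold (0.12 and 0.10 on the log2 scale).

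*Npm1* (chromosome 11, 33100281 to 33113267, minus strand) was at 222, 249, 211 and 215 CPM in naive cells, 227, 223, 221 and 211 with IL-4/IL-13, 279, 279.8, 292 and 287 with tunicamycin, 319.9, 325, 351 and 327 in set A and 289, 274, 286 and 271 in set B. It was highest in set A, and its log2 fold changes against IL-4/IL-13 were 0.37, 0.58 and 0.34. With Sal003 it was at 232, 242, 233.5 and 241.9 CPM, above all IL-4/IL-13 libraries but not past the threshold (log2 fold change 0.11, standard error 0.05, adjusted *P* = 0.058). *Ddx21*, an RNA helicase of the nucleolus, changed by 0.59 with the cytokines, 0.88 with tunicamycin, 0.04 with Sal003 and 0.52 and 0.19 in sets A and B, the Sal003 value not past the threshold.

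A list of 97 further ribosome biogenesis genes, none of them members, was counted in the same comparisons. With IL-4/IL-13 45 rose and 15 fell (median log2 fold change 0.14), 46.4% and 15.5% beside 30.1% and 30.4% of all genes. With tunicamycin 80 rose and 7 fell (0.56), 82.5% and 7.22% beside 38.7% and 37.6%. With Sal003 46 rose and 3 fell (0.13), 47.4% and 3.09% beside 25.9% and 24.6%. In set A 78 rose and 6 fell (0.40), 80.4% and 6.19% beside 34.0% and 32.2%. In set B 45 rose and 5 fell (0.13), 46.4% and 5.15% beside 27.9% and 26.4%. Between the sets 66 were higher in set A (68.0% beside 19.9%). The 1 that was lower was *Polr1d*, a subunit shared by RNA polymerases I and III (1.03% beside 21.3%). *Pno1*, a factor of late small subunit maturation, had the largest rise in this list with each inhibitor group, by 2.14 with tunicamycin, 0.80 with Sal003, 1.43 and 0.79 in sets A and B. Among further RNA polymerase I subunits, *Polr1g* fell by 0.57 on the log2 scale with tunicamycin and *Polr1h* fell by 0.66 with the cytokines. *Tcof1*, whose protein treacle holds RNA polymerase I at rRNA genes, was among the 3 largest rises with Sal003 (0.59) and in set B (0.75).

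The 73 cytosolic ribosomal protein genes, the protein part of the finished particle, had 7 rises (9.59%) and 29 falls (39.7%) with tunicamycin (median log2 fold change -0.15), beside 38.7% and 37.6% of all genes. With IL-4/IL-13 20 rose and 2 fell (0.13), 27.4% and 2.74% beside 30.1% and 30.4% of all genes. With Sal003 1 rose and 10 fell (-0.08), 1.37% and 13.7% beside 25.9% and 24.6%. In set A 23 rose and 6 fell (0.13), 31.5% and 8.22% beside 34.0% and 32.2%. In set B 12 rose and 4 fell (0.06), 16.4% and 5.48% beside 27.9% and 26.4%. Between the sets 5 were higher and 5 lower in set A, 6.85% each beside 19.9% and 21.3%. The rises were thus no more frequent than among all genes in any of these comparisons.

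*Myc* had an order of its own. It was at 8.49, 8.02, 7.45 and 9.14 CPM in naive cells, 67.1, 64.05, 58.9 and 62.9 with IL-4/IL-13, 48.99, 46.9, 51.3 and 48.9 with tunicamycin, 27.3, 22.3, 25.8 and 16.2 with Sal003, 35.8, 33.7, 31.8 and 31.5 for set A and 24.3, 23.03, 25.3 and 20.98 for set B. It rose with the cytokines (log2 fold change 2.93, standard error 0.11, adjusted *P* = 2.1e-17) and fell below IL-4/IL-13 in each inhibitor group, by log2 fold changes of -0.37, -1.47, -0.93 and -1.44 in the order of tunicamycin, Sal003 and sets A and B. Among the inhibitor groups tunicamycin and set A, with the higher *Myc* levels, were also those with the higher share of counts on members. Its partner *Max* had mean levels of 106 to 126 CPM over the 6 groups, and *Mycn* had 2 counts or fewer in each library. The part of *Myc* in the members' levels was not tested.

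Among genes in none of these lists, the 5 whose log2 CPM was most like the members' mean over the 24 libraries were *Orc2*, *Trmt61a*, *Pum3*, *Pla2g4a* and *Ifrd2*, with Pearson's *r* of 0.993 to 0.986. These points share libraries, mice and groups, so the values are a description. *Pla2g4a*, for cytosolic phospholipase A2, averaged 15.1 CPM in naive cells, 35.5 with IL-4/IL-13, 114 with tunicamycin, 37.0 with Sal003, 74.3 and 41.8 in sets A and B.

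Some members have features that the list did not use. Within 8 of them (*Dkc1*, *Gnl3*, *Ncl*, *Nop56*, *Nop58*, *Ppan*, *Tsr1* and *Wdr43*) lie 23 annotated snoRNA genes, 5 of them in *Nop56*, which libraries of mRNA do not measure. Promoter sequences, 250 bases before and 50 bases from the start site on, were taken from RefSeq (GRCm38.p6), where 35 members have 43 entries. The letters CACGTG, the E-box that MYC and MAX bind, occurred on either strand in 8 of the 43 promoters (18.6%), against 9.86% of 12692 promoters of tested genes and 7.15% of all 32851 promoters in the table. CCGGAAG, an ETS motif, occurred in 14 (32.6%, against 17.4% and 8.86%), and GCGCANGCG, the NRF1 motif, in 13 (30.2%, against 12.8% and 6.25%). TGATGNAA, the C/EBP-ATF element, occurred in 1, that of *Nop14* (2.33%, against 2.36% and 3.97%). A match is a description of the letters and shows no binding.

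Of the 13 members that rose in each of the 4 inhibitor groups, 12 have a promoter entry, and 5 of these 12 hold an E-box. These 12 also hold NRF1 matches, among them *Rrp9* and *Utp15*, and ETS matches, among them *Heatr1* and *Noc3l*. By gene, an E-box was held by 8 of the 35 members with an entry (22.9%) and by 11.7% of tested genes. Whether it is more frequent in these 12 was not tested, and the 5 are not read as a result. The promoters below are those of the 5 with an E-box, to show where their E-boxes lie, and that of *Dkc1*. Relative to the RefSeq start site, the E-boxes begin at -215 and -48 in *Rrn3*. They begin after it in the others, at base 41 in *Mybbp1a*, 38 in *Utp20*, 16 in *Utp4* and 18 in *Wdr43*. This start site lies inside the annotated gene by 458 bases in *Utp4*, 320 in *Wdr43*, 187 in *Rrn3*, 84 in *Mybbp1a* and 23 in *Utp20*. The printed stretches of *Utp4* and *Wdr43* lie wholly within the annotated gene. *Dkc1* rose with tunicamycin, fell in the other inhibitor groups and held no match to the 4 motifs. Members that rose also held no match, among them *Noc4l*, which rose in all 4 inhibitor groups, and *Gnl3*. The other 3 members with an E-box, *Nop2*, *Tsr1* and *Pes1*, did not rise in all 4, and *Nop2* fell with Sal003 (-0.16) and in set B (-0.12). Both *Nop2* calls were lost with no filter on low counts and without mouse 1 or 4. Each promoter below is printed from 5′ to 3′ in the direction of the gene, with matches to the 4 motifs in capitals, and was located in GRCm39 by its exact sequence. *Rrn3* (chr16:13598313-13598612, plus strand) holds 2 E-boxes and 2 ETS matches, and *Utp4* (chr8:107620022-107620321, plus strand) 1 E-box close to an NRF1 match and 2 ETS matches. *Mybbp1a* (chr11:72331903-72332202, plus strand) and *Wdr43* (chr17:71922960-71923259, plus strand) hold an NRF1 match and an E-box each, *Utp20* (chr10:88662627-88662926, minus strand) an E-box alone, and *Dkc1* lies at chrX:74139210-74139509, plus strand.
Rrn3: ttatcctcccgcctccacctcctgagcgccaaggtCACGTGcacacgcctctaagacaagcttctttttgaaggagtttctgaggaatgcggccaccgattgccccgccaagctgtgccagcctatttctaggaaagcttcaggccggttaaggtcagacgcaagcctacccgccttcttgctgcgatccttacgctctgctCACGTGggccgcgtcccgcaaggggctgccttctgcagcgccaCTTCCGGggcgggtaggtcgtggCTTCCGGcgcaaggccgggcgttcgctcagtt
Utp4: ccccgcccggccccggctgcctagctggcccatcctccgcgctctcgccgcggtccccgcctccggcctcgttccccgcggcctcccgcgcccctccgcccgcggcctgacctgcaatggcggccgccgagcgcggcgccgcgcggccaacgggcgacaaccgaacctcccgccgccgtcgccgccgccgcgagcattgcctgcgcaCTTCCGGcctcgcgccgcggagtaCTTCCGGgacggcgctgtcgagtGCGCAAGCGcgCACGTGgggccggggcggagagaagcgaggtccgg
Mybbp1a: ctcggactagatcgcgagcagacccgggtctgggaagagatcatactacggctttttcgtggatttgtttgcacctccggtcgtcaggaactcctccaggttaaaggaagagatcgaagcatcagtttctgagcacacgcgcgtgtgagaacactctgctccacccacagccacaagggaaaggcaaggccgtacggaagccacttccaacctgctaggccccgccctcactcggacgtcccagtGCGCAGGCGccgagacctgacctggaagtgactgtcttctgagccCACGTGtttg
Wdr43: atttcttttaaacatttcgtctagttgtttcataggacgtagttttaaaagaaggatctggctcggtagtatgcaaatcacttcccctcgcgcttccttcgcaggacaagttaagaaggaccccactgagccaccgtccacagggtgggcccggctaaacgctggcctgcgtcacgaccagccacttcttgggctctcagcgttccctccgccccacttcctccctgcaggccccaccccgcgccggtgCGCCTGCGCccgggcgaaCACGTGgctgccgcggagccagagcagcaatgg
Utp20: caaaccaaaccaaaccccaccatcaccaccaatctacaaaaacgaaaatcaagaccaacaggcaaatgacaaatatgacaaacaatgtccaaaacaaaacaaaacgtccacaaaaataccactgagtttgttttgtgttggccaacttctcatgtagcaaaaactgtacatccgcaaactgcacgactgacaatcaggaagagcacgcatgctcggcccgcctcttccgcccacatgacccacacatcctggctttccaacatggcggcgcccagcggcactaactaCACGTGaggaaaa
Dkc1: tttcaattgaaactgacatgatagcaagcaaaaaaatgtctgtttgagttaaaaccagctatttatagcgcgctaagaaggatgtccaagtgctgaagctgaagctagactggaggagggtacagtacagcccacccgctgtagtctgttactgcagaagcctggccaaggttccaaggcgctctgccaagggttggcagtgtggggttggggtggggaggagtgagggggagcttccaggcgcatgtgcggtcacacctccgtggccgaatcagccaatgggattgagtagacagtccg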

How the data were processed

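Libraries of mRNA were sequenced as single reads. Per the study's methods and the labels, the authors trimmed adapters (cutadapt 1.8), removed reads matching rRNA, aligned the rest to GRCm39 (STAR 2.7) and counted reads per gene (HTSeq 0.9.1), which gave the deposited table of raw counts used here. Its 5 summary lines, 12.7% to 15.2% of each library, were left out of library sizes. A deposited TPM table was not used because its header has 28 names over 25 cells per line, so the TPM given here were computed from the counts and the canonical transcript lengths. Columns of all 24 libraries were matched by library name.
Genes passing edgeR's filterByExpr were fitted in one quasi-likelihood model of the 6 groups with TMM normalization (edgeR 4.0.16, R 4.3.3), with no block, as the study's methods state none, and *P* values were adjusted by Benjamini-Hochberg over all 13679 genes. The common biological coefficient of variation was 7.5%. Libraries of the same mouse number come from the same animal: in 56 of 60 such pairs the deviations from group means correlated above 0.1 (median 0.24, against -0.05 between mice), so the number pairs the libraries and a model with the mouse as a block was run beside it. No 2 libraries of a group agreed within counting error (chi-square per gene 2.12 to 32.8). Alternatives were DESeq2 1.42.0, upper-quartile scaling, other filters, the compared groups alone, a minimum of 2.5-fold, and leaving out each mouse. The fit was also run on simulated counts, and no outcome of that run is given here.
Levels per library, in the groups that a result turns on, are given for the 3 members with the largest called change per direction and comparison, the 6 RNA polymerase I genes, *Ncl*, *Npm1* and *Fbl*. Other members are given by range or by log2 fold change. The members and the gene lists were chosen with earlier results of these data known. Overlaps with other genes were examined for the members alone. Gene positions are GRCm39 (GENCODE), and promoter sequences are RefSeq's for GRCm38.p6.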

Additional observations from a re-analysis of the deposited data

Results flagged for a closer look

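Of 138 sets of 4 libraries (22 members and the members' share of counts, each in 6 groups), 8 had a library whose gap to its nearest neighbour exceeded Dixon's critical value. Chance alone flags about 1 in 20 such sets. *Dkc1* in set B was at 13.6 CPM in mouse 1 against 11.7 to 11.9 CPM in the others. In the naive library of mouse 2, *Nop10* was at 27.2 CPM against 18.98 to 20.1 CPM and *Noc2l* at 138.7 CPM against 119.6 to 121 CPM. *Nop16* in set B was at 20.1 CPM in mouse 2 against 22.3 to 22.6 CPM. *Utp15* was low with IL-4/IL-13 in mouse 1, at 27.1 CPM against 29.5 to 29.96 CPM, and high with Sal003 in mouse 5, at 42.9 CPM against 38.7 to 39.4 CPM. *Polr1a* with Sal003 was at 33.7 CPM in mouse 4 against 35.7 to 36.0 CPM, and *Polr1b* with tunicamycin was at 26.2 CPM in mouse 1 against 28.3 to 28.6 CPM.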

How the results depend on the processing

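Levels are shares of mRNA, so a change in total RNA per cell is not measured. With the mouse as a block, *Noc2l* fell with IL-4/IL-13 (1 member lower) and *Bop1* fell with Sal003 and in set A, and no other call of a member changed. The median against IL-4/IL-13 with tunicamycin was 0.73 with upper-quartile scaling, 0.82 with no filter, 0.73 with at least 10 counts in every library and 0.75 with the compared groups alone. In set B it was 0.06, 0.09 (at least 10 counts), 0.1 (compared groups) and 0.09 (DESeq2). Against naive cells it was 1.15, 1.29 (no filter) and 1.17 (at least 10 counts) with tunicamycin, and 0.40 in set B with upper-quartile scaling, which moved the median of all genes for tunicamycin against naive cells to -0.121. Upper-quartile scaling also gave 1 member lower with IL-4/IL-13 and in set B against naive cells, and 0 lower and a median of 0.40 in set A minus set B. At least 10 counts gave 1 lower with IL-4/IL-13. With no filter 5 fell with Sal003 and 0 were lower in set A than set B. With a minimum of 2.5-fold, 5 members were higher with tunicamycin against IL-4/IL-13, and 16 with tunicamycin and 6 in set A against naive cells, and 0 in the other comparisons and 0 lower. Leaving out each mouse gave medians of 0.74 to 0.81 with tunicamycin, 0.09 to 0.13 in set B, 0.36 to 0.38 in set A minus set B and 1.18 to 1.27 with tunicamycin against naive cells. It gave 7 to 10 lower in set B, the 7 without mouse 4, 0 to 1 lower in set A minus set B (0 without mouse 1, 4 or 5) and 0 to 1 lower in set A against naive cells (0 without mouse 2). Signs turned for uncalled changes near 0. With the cytokines *Npm1* was 0.0043 (DESeq2), 0.01 (no filter) and -0.05 to 0.02 without each mouse (0.02 without mouse 2), and *Polr1c* 0.01, 0.02 and -0.11 to 0.03 without each mouse (0.03 without mouse 1, 2 or 4). *Ncl* with Sal003 was -0.0025 (upper-quartile scaling), and *Fbl* in set A was 0.002 (no filter), 0.00082 (mouse as a block), -0.07 to 0.04 without each mouse (0.03 without mouse 2). Of the named changes under all alternatives, 780 kept their direction and call, 90 lost the call, 8 gained one and 13 turned. Without the 100 most abundant genes the members' share was 0.2267% in naive cells, 0.2691% with IL-4/IL-13, 0.4459% with tunicamycin, 0.2776% with Sal003 and 0.3925% and 0.2952% in sets A and B. Over the 30 members with little sequence shared with other genes, an alternative chosen after seeing the data, 1 and 6 fell in sets A and B. The 10 others had at least 10% of exon bases under opposite-strand exons or at least 10% of their stretches of 75 bases shared with other genes. They were *Bop1*, *Dkc1*, *Fbl*, *Ftsj3*, *Nhp2*, *Noc2l*, *Nop16*, *Nop56*, *Rrs1* and *Tsr1*, and their counts are uncertain. The causes of these differences were not tested.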
